A study of Homo sapiens with 5 samples.

Results

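Insulin receptor substrate 4 (IRS4) and 9 further genes of insulin and insulin-like growth factor (IGF) signalling were examined in 5 RNA sequencing libraries of HEK293T cells, a human embryonic kidney line. The 10 genes were IRS4, IRS1, IRS2, INSR, IGF1R, IGF2R, IGF2, PIK3R1, FOXO1 and FOXO3, out of 19716 genes with a read in at least 1 library, and each was found by its symbol. The set was chosen by the level of IRS4, which had been seen to be much lower in the dCas9 libraries than in the control, so every value of these 10 genes set against the control is a description and carries no test. Cells of 4 groups were transfected with 5 uPA sgRNAs together with a single fusion plasmid, and the groups were named dCas9-BFP-DNMT3B, dCas9-BFP-DNMT3A, dCas9-BFP-EGFP and dCas9-BFP-DNMT1. These are fusions of nuclease-dead Cas9 and a blue fluorescent protein (BFP) to the catalytic domain of a DNA methyltransferase or to EGFP, which does not methylate DNA. With the uPA guides, the study reported raised methylation at the uPA promoter for the DNMT3A and DNMT3B fusions. It reported no such rise for the DNMT1 and EGFP fusions. The fifth group, titled control, received pUC19, a plasmid with neither dCas9 nor sgRNA. All groups shared 1 ug of plasmid DNA, X-tremeGENE 9 and RNA collection after 48 h, and each group had 1 library. Sorting of BFP-positive cells is stated in the labels of all 5 samples, pUC19 included, yet that plasmid carries no BFP gene, and it is not clear how the control cells were sorted. The control also differs from all 4 fusions in lacking dCas9 and sgRNAs, and these differences cannot be told apart.

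In this pathway insulin and the IGFs bind receptor tyrosine kinases, INSR and IGF1R, at the cell surface. The activated receptors phosphorylate adaptor proteins of the IRS family, which recruit phosphoinositide 3-kinase (PI3K) and adaptors of the RAS-MAPK branch. PI3K activates AKT, which phosphorylates the FOXO transcription factors and keeps them out of the nucleus. HEK293 cells are known for a high level of IRS4, a family member of narrow tissue distribution.

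The 5 guides are shown because all 4 fusions carried them and the study examined sites that share only the last 5 bases of a guide, the seed, next to an NGG motif. The guides are given from 5' to 3' with the seed in capitals.
uPA-T1: gtgagcgttgcggaaGCACG
uPA-T2: gagccgggcgggagaGGGAG
uPA-T3: gagtcaaggcgccccGTCCC
uPA-T4: gcccggggatctcagGACCG
uPA-T5: gggacaggtggacccTGGCC

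The letters searched on both strands were GCACGNGG for T1, GGGAGNGG for T2, GTCCCNGG for T3, GACCGNGG for T4 and TGGCCNGG for T5, over RefSeq promoter windows of 250 bases before and 50 bases after each start site (assembly GRCh38.p14). Of 35116 windows in the genome, 42.57% held at least 1 match, and T2 alone matched in 25.701%. Of the 10 genes, 9 had a window in the table and together they had 16 windows, of which 4 held a match: the window of IRS2, that of INSR and 1 of the 4 windows each of PIK3R1 and FOXO3. Neither of the 2 IRS4 windows held one. CpG-rich windows (55% GC or more, with a CpG frequency of 0.6 or more of that expected from base composition) were 13 of the 16 and 44.3% of all windows. Both IRS4 windows were CpG-rich, with ratios of 0.69 and 0.77. The 250 bases before the start of IRS4 and of INSR are given as a window without and a window with matches, the matches in capitals.
IRS4, GRCh37 chrX:107979794-107980043, minus strand: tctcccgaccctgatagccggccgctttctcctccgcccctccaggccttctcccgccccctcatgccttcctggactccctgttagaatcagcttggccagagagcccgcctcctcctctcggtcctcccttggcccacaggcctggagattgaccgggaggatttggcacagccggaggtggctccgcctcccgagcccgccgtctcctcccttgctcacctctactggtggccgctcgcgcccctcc
INSR, GRCh37 chr19:7294426-7294675, minus strand: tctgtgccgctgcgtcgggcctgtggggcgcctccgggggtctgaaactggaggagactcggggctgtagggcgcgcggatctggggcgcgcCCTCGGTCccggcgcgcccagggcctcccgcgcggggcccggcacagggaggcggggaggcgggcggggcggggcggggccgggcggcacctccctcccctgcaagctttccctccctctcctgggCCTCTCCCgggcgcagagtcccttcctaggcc

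In the INSR window the matches belonged to T4, 158 to 151 bases before the start site, and to T2, 32 to 25 bases before it, both on the opposite strand to the gene. A further match, to T1, lay 29 to 36 bases after the start. These are matches of letters only, and binding of the fusions was not measured in these libraries. The study measured binding by ChIP-seq and methylation by bisulfite sequencing in other samples with the uPA guides, and those data were not used here.

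Totals of reads on genes ranged from 26.2 to 36.1 in units of 1000000 reads, the largest in pUC19, and 3 reads corresponded to a share of 0.083 to 0.114 per 1000000. Each methyltransferase had 937571 to 1624754 reads in the library of its own fusion and at most 15181 in any other. PLAU, the gene of uPA and target of the guides, had 6, 6, 1 and 4 reads in the DNMT1, DNMT3A, DNMT3B and EGFP libraries and 106 in pUC19. All 7 markers listed for HEK293T cells were at 1 TPM or more in each library, with a summed level of 600.4 to 790.4 TPM. Their sum was highest in pUC19, where the neurofilament genes NEFM (193 against 34.3 to 60.2 TPM) and NEFL (90.7 against 28.9 to 35.6 TPM) exceeded all 4 fusions. VIM, the largest part of the sum, was lowest in pUC19 (437.4 against 463.4 to 599.2 TPM), and PAX2, LHX1 and NES in pUC19 lay within or just above the range of the fusions. Summed markers of other cell types reached 8.36 TPM for fibroblasts, 10.4 TPM for leukocytes, nearly all of it LYZ, 1.85 TPM for hepatocytes and 1.28 TPM for endothelial cells, and COL1A2, CD3E and CDH5 had no reads. Fewer cells with a transcript and less of it per cell cannot be told apart in these bulk libraries.

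IRS4, an adaptor of the IRS family, was the member with the largest difference from pUC19. Its level was 76.5 TPM (transcripts per 1000000, a level scaled for transcript length) in the DNMT1 library, 70.5 in DNMT3A, 66.3 in DNMT3B, 68.2 in EGFP and 395.9 in pUC19. The reads behind these values were 3675, 3487, 2899, 2988 and 24500. The 4 fusions lay close together, with a coefficient of variation of 6.28% (n = 4 libraries of different fusions) and a highest level 1.15 times the lowest, whereas pUC19 stood far above all of them. Ratios to pUC19 were taken as TPM + 0.1 and given with 95% exact intervals that cover counting error only. IRS4 was 5.17-fold lower in DNMT1 (interval 5.00 to 5.36), 5.61-fold lower in DNMT3A (5.42 to 5.82), 5.96-fold lower in DNMT3B (5.74 to 6.21) and 5.80-fold lower in EGFP (5.59 to 6.03). The DNMT1 interval lies below those of the other 3 fusions, and the EGFP interval overlaps those of DNMT3A and DNMT3B.

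IRS4 ranked 342 by TPM in pUC19 and 2247, 2757, 2921 and 2774 in the DNMT1, DNMT3A, DNMT3B and EGFP libraries. Even so, it was not at the extreme of the distribution, since 94, 102, 101 and 62 genes had a larger fall, out of 14352, 14337, 14355 and 14449 genes at 1 TPM or more. On the log2 scale IRS4 differed from pUC19 by -2.37, -2.49, -2.58 and -2.54. The median of all genes in the DNMT1 library was itself -0.14, and relative to the median of its own library IRS4 lay at -2.23, -2.46, -2.55 and -2.53.

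The gene lies on the minus strand of chromosome X (GRCh37 chrX:107963176-107979793). Its canonical GENCODE transcript has 2 exons, exon 1 of 3985 bases (chrX:107975809-107979793) and exon 2 of 2578 bases (chrX:107963176-107965753), and the deposited transcript length was 3881 bases. Between 97.7% and 100% of that transcript was covered by reads in each library. The first 553 bases lie inside IRS4-AS1, an antisense lncRNA on the plus strand (chrX:107979241-107982453) that had no row. Strandedness was not given in the sources used here, so reads from that stretch cannot be assigned to a strand.

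**Figure D1:**
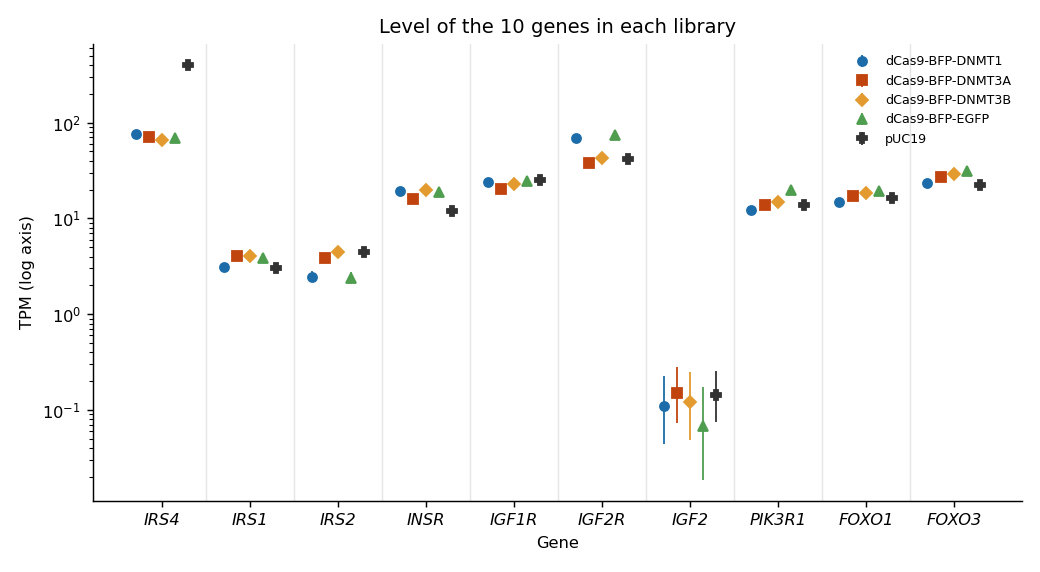
Level of each of the 10 genes in TPM (logarithmic axis) in the 5 libraries, with 95% Poisson intervals for counting error. IRS4 in pUC19, at 395.9 TPM, stands apart from the 66.3 to 76.5 TPM of the fusions, IGF2R forms a higher pair (DNMT1 and EGFP) and a lower trio, and IGF2 lies below 0.2 TPM throughout.

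IRS1 and IRS2, the broadly expressed adaptors of the family, were present at far lower levels than IRS4. IRS1 measured 3.09, 4.09, 4.09 and 3.84 TPM in the DNMT1, DNMT3A, DNMT3B and EGFP libraries and 3.03 TPM in pUC19. It was 1.34-fold the control in DNMT3A and DNMT3B, 1.26-fold in EGFP and 1.02-fold in DNMT1, where the interval (0.880 to 1.18) includes a ratio of 1. IRS2 measured 2.46, 3.91, 4.49 and 2.40 TPM in the same fusions and 4.41 TPM in pUC19. The DNMT1 and EGFP libraries were thus the low ones for IRS2, 1.76-fold and 1.80-fold under pUC19, while DNMT3A and DNMT3B lay near it. For both genes the DNMT1 ratio includes the shift of the median gene of that library, -0.14 on the log2 scale, which the intervals do not cover.

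IRS4 made up 98.2% of the summed TPM of IRS1, IRS2 and IRS4 in pUC19. In the fusions this share was 93.2% (DNMT1), 89.8% (DNMT3A), 88.5% (DNMT3B) and 91.6% (EGFP). IRS4 thus remained the main IRS transcript in every library, and IRS1 plus IRS2 ranged only from 5.55 to 8.59 TPM, with 7.44 TPM in pUC19. The summed family level was 74.4 to 82.0 TPM in the fusions and 403.3 TPM in pUC19.

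None of the receptors lay 2-fold or more from pUC19. INSR, the insulin receptor, measured 19.4, 15.8, 19.98 and 18.9 TPM in the DNMT1, DNMT3A, DNMT3B and EGFP libraries and 12.0 TPM in pUC19. All 4 fusions were above the control, by 1.62-fold, 1.32-fold, 1.66-fold and 1.57-fold. IGF1R, the type 1 IGF receptor, measured 23.95, 20.3, 23.0 and 24.4 TPM against 25.4 TPM in pUC19, so that the fusions were 1.04-fold to 1.25-fold lower. In the DNMT1 library that difference (-0.08 on the log2 scale) was smaller than the shift of the median gene.

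IGF2R, the cation-independent mannose 6-phosphate receptor, binds IGF2 and delivers it to lysosomes. It measured 69.6 TPM in DNMT1 and 74.4 TPM in EGFP, against 37.8 TPM in DNMT3A, 42.4 TPM in DNMT3B and 41.7 TPM in pUC19. The libraries thus formed 2 levels, with DNMT1 and EGFP 1.67-fold and 1.78-fold above pUC19 and both de novo methyltransferase fusions close to it. In the EGFP library IGF2R exceeded IRS4, which was not so in any other library. IGF2, the ligand, was barely detected, with 7, 10, 7 and 4 reads in the fusions and 12 in pUC19, or 0.068 to 0.151 TPM. At that depth no difference was detectable, since the interval of each ratio included 1. INS-IGF2 had no row, and the overlapping antisense gene IGF2-AS and the IGF2R antisense transcript AIRN had at most 1 read in any library.

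PIK3R1, which encodes the regulatory PI3K subunit p85 alpha, measured 12.2, 13.8, 14.9 and 19.9 TPM in the DNMT1, DNMT3A, DNMT3B and EGFP libraries and 13.6 TPM in pUC19. The EGFP library was the high one, at 1.46-fold the control. FOXO1, a transcription factor that AKT restrains, measured 14.7, 17.2, 18.2 and 19.3 TPM against 16.2 TPM in pUC19, and its order across the fusions was the same as that of PIK3R1. FOXO3, a second factor of this class, measured 23.4, 27.0, 29.3 and 31.2 TPM against 22.5 TPM in pUC19, again with DNMT1 lowest and EGFP highest. The row FOXO3B, a near-identical copy of FOXO3, measured 6.25, 13.4, 14.4 and 8.89 TPM against 5.91 TPM. Uniquely mapped reads can be split between the 2 rows, so FOXO3 is uncertain to that extent, and the sum of both was 29.7, 40.4, 43.7 and 40.1 TPM in the fusions and 28.4 TPM in pUC19.

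**Figure D2:**
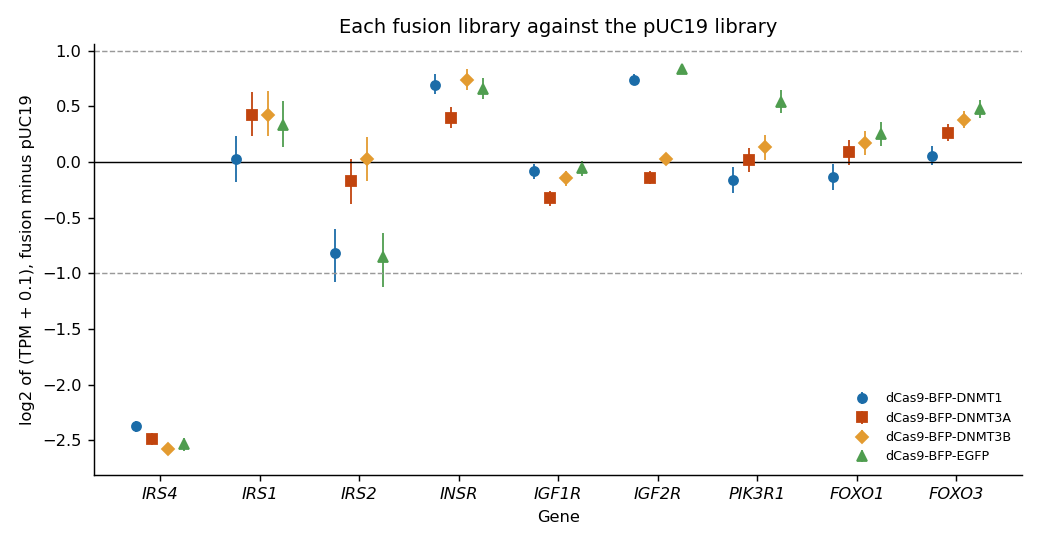
Log2 difference in TPM + 0.1 between each fusion library and pUC19 for the 9 genes at 1 TPM or more (IGF2 is left out), with 95% exact intervals for counting error and dashed lines at 2-fold. IRS4 lies between -2.37 and -2.58 in all 4 fusions, and every other value lies inside the 2-fold lines.

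At 1 TPM or more in either library, 9 of the 10 genes could be set against pUC19. In each fusion 1 of them, IRS4, was 2-fold or more lower and 0 were 2-fold or more higher. Among all genes the share that was 2-fold or more lower was 5.86% in DNMT1, 7.29% in DNMT3A, 6.48% in DNMT3B and 4.84% in EGFP, and the share that was higher was 2.54%, 6.24%, 6.62% and 4.35%. Across all 4 fusions together 2.01% of 14102 genes were lower in each and 0.737% were higher in each. Since IRS4 was chosen for this difference, nothing is read from its count. The median of the 9 genes was -0.08, 0.02, 0.13 and 0.33 on the log2 scale in DNMT1, DNMT3A, DNMT3B and EGFP, beside -0.14, -0.03, -0.02 and -0.00 for all genes.

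Whether the fusions differed from each other could be tested for the genes other than IRS4, because pUC19 takes no part in it. The DNMT3A and DNMT3B libraries were compared with the DNMT1 and EGFP libraries with edgeR's quasi-likelihood test over 15332 genes, and differences are log2 values with an approximate standard error (SE). IGF2R was lower in the DNMT3A and DNMT3B libraries than in DNMT1 and EGFP by 0.90 (SE 0.118, edgeR adjusted p = 0.00502), a 1.86-fold difference between means of 40.1 and 72.0 TPM. IRS2 was higher by 0.73 (SE 0.190, edgeR adjusted p = 0.0399), a 1.66-fold difference. For both genes it was the DNMT3A and DNMT3B libraries that lay near pUC19 (41.7 TPM for IGF2R and 4.41 TPM for IRS2). The libraries of the 2 sides did not overlap in TPM for 4 of the 9 members, these 2 and also IRS1 and IGF1R, beside 57.5% of all genes. The remaining 7 genes tested did not pass the threshold of 0.05. IRS4 was among them, with a difference of -0.14 (SE 0.136, edgeR adjusted p = 0.535), and FOXO1 and FOXO3 were at 0.01 (SE 0.145) and -0.00 (SE 0.138). Because IRS4 was chosen for its low level in the dCas9 libraries, the choice itself favours similar levels among them. Its small difference is not independent of that choice, and nothing is read from it. Thus 1 of 9 members was higher and 1 lower, where over all genes 6.90% were higher and 4.15% lower, and the member median of -0.14 stood beside -0.01 for all genes. Each side held 2 libraries of different fusions, so these p-values measure the spread between such libraries and not between repeated transfections.

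Both calls were lost when either de novo fusion library was left out, but not when DNMT1 or EGFP was left out. Without DNMT1 the differences were -0.88 for IGF2R and 0.82 for IRS2, and without EGFP they were -0.91 and 0.65. Each of these fits had a single library on 1 side, so the loss of a call is not read as the loss of a difference. Without DNMT3A the edgeR adjusted p was 0.147 for IGF2R and 0.248 for IRS2, and without DNMT3B it was 0.0691 and 0.322, while the differences stayed between -0.82 and -0.97 for IGF2R and between 0.63 and 0.82 for IRS2. With no filter on low counts IRS2 also missed the threshold (edgeR adjusted p = 0.0535). Over all genes the fits without DNMT3A and without DNMT3B called 18 and 53 genes in place of 1694. FOXO3B was higher by 0.83 (SE 0.161, edgeR adjusted p = 0.0155) in the DNMT3A and DNMT3B libraries, whereas FOXO3 itself differed by -0.00.

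**Figure D3:**
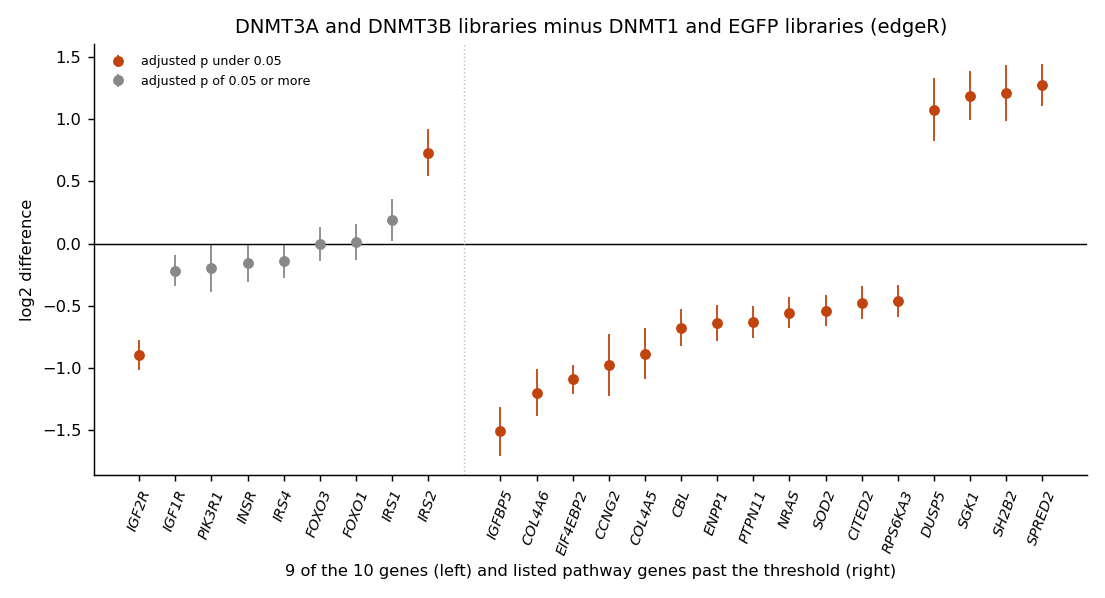
Log2 difference between the DNMT3A and DNMT3B libraries and the DNMT1 and EGFP libraries from the edgeR fit, with approximate standard errors, for 9 of the 10 genes (left) and for 16 of the 17 listed genes past an adjusted p of 0.05 (right, chosen for passing). On the right, COL4A5 and COL4A6 are chromosome X neighbours of IRS4 and not pathway genes. IGF2R, at -0.90, and IRS2, at 0.73, are the members that passed, and IRS4 lies at -0.14.

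Pairs of fusion libraries were also compared by a two-sided exact conditional binomial test on reads, which compares 2 libraries and not 2 conditions. The test took reads against library totals, whereas the folds are of TPM + 0.1, so a fold and its p are on different scales. None of the 60 comparisons, 10 genes in 6 pairs, reached the study's thresholds of an adjusted p of at most 0.001 and 2-fold. The study had set these for comparison with pUC19. Over all genes the share called was 3.59% for DNMT1 and DNMT3A, 3.54% for DNMT1 and DNMT3B, 1.44% for DNMT1 and EGFP, 0.215% for DNMT3A and DNMT3B, 3.97% for DNMT3A and EGFP and 3.50% for DNMT3B and EGFP. The closest to the fold threshold was IGF2R, 1.96-fold higher in EGFP than in DNMT3A (exact adjusted p = 5.32e-283). With no minimum fold, 27 of the 60 comparisons passed on read sampling alone, beside 31.1% of the comparisons of all genes in the 6 pairs. That share takes in every gene with a read in either library, and many of these have too few reads to pass. The members other than IGF2 had 190 or more reads in each fusion, so the 2 shares are not matched for depth. For the pairs in the order above, 6, 5, 4, 2, 6 and 4 of the 10 genes passed, beside 36.9%, 35.6%, 27.1%, 14.3%, 37.3% and 35.1% of all genes. IRS4 between DNMT1 and DNMT3B was among them at 1.15-fold (exact adjusted p = 1.66e-17). With an assumed coefficient of variation of 0.2 between libraries, 0 of the 60 had an adjusted p of at most 0.05 in the edgeR exact test at any fold. That value was set and not estimated, and the edgeR fit of the 4 fusions gave a common value of 0.135. With 1 library on each side, differences under 2-fold can hardly pass at 0.2. The 0 is therefore not read as a lack of difference.

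The wider pathway and the surroundings of IRS4 were read from 9 lists with 150 genes, none of them a member. Of these genes 146 had reads and 124 were at 1 TPM or more. Chromosome X neighbours of IRS4 made up 1 of the lists, with 9 genes. They are not pathway genes but count in every total of listed genes. Set against pUC19, 1 of the 124 was 2-fold or more higher in all 4 fusions and 3 were lower, beside the 0.737% and 2.01% of all genes. The higher gene was TRIB3, a pseudokinase described as an inhibitor of AKT, at 115.6, 86.9, 84.5 and 96.8 TPM in the DNMT1, DNMT3A, DNMT3B and EGFP libraries and 36.0 TPM in pUC19. All 4 fusions exceeded the control, by 2.34-fold to 3.21-fold. GRB14, an adaptor that inhibits the insulin receptor, measured 5.11, 3.33, 3.03 and 4.13 TPM against 10.4 TPM, which was 2.02-fold to 3.37-fold lower. DOK3, an adaptor mainly known from immune cells, was low throughout, at 0.38 to 0.87 TPM in the fusions and 2.10 TPM in pUC19. The third lower gene, ACSL4, is a chromosome X neighbour of IRS4 and is described with the neighbours.

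The 4 fusions together were also tested against pUC19 with edgeR's quasi-likelihood test for these listed genes, 138 of which were tested. None passed an adjusted p of 0.05, beside 0.0937% higher and 0.644% lower among all 16001 genes. An unadjusted p under 0.05 was found for 26 of them (18.8%), beside 18.0% of all genes. DESeq2 called 12 of the 127 listed genes to which it gave an adjusted p (9.45%), beside 7.10% of all genes. The 12 included ACSL4, NXT2 and ATG4A, which are neighbours of IRS4 and not pathway genes. The nearest listed genes were TRIB3, with a log2 difference of 1.47 (SE 0.275, edgeR adjusted p = 0.0525), and ACSL4, with -1.11 (SE 0.217, edgeR adjusted p = 0.0574). The spread in this fit comes from the 4 fusions alone, and the single pUC19 library is assumed to vary like them.

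Between the DNMT3A and DNMT3B libraries and the other 2 fusions, 134 listed genes were tested in the edgeR fit described for IGF2R and IRS2. Of these 5 were higher and 12 lower in the DNMT3A and DNMT3B libraries, or 3.73% and 8.96%, beside 6.90% and 4.15% of all genes. The median difference was -0.08 beside -0.01. The 12 included COL4A5 and COL4A6, which are neighbours of IRS4 and not pathway genes. The counts depended on the libraries, since 0 listed genes passed without DNMT3A and 1, IGFBP5, without DNMT3B. IGFBP5, a secreted IGF-binding protein, was at 16.0 and 12.0 TPM in DNMT1 and EGFP, at 4.95 and 5.34 TPM in DNMT3A and DNMT3B and at 30.4 TPM in pUC19. It was lower in the DNMT3A and DNMT3B libraries than in DNMT1 and EGFP by 1.51 (SE 0.196, edgeR adjusted p = 0.00487), and was the 1 of 6 ligand and binding protein genes tested that passed. None of the 3 IGF2 mRNA-binding proteins did.

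Among 23 other receptors and adaptors 1 was higher and 1 lower in the DNMT3A and DNMT3B libraries, beside 6.90% and 4.15% of all genes. SH2B2, an adaptor bound by the insulin receptor, was at 15.9 and 16.9 TPM in DNMT3A and DNMT3B and at 7.86 and 5.67 TPM in DNMT1 and EGFP, a difference of 1.21. PTPN11, the phosphatase SHP2, was at 72.3 and 81.9 TPM against 101.5 and 129.6 TPM, lower by 0.63. Of 15 further PI3K subunits and effectors only SGK1, a kinase activated downstream of PI3K, passed, with 9.49 and 8.36 TPM against 3.68 and 3.86 TPM, a difference of 1.19. In the mTOR branch 1 of 19 genes passed, EIF4EBP2, a repressor of cap-dependent translation, at 45.4 and 47.8 TPM against 91.7 and 100.1 TPM (difference -1.09). The sides did not overlap for these 4 genes. This was also so for 83 of the 134 listed genes, 66 of them not past the threshold, beside 57.5% of all genes.

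In the RAS-MAPK branch 3 of 24 genes were higher and 2 lower in the DNMT3A and DNMT3B libraries, beside 6.90% and 4.15% of all genes. SPRED2, an inhibitor of RAS signalling, was higher by 1.28, at 21.9 and 22.3 TPM in DNMT3A and DNMT3B against 9.66 and 7.81 TPM in DNMT1 and EGFP. DUSP5, a phosphatase of ERK, was higher by 1.08. NRAS was lower by 0.56 and RPS6KA3, a kinase downstream of ERK, by 0.46, the latter just under the threshold (edgeR adjusted p = 0.0496). RPS6KA3 missed it with median-ratio size factors (edgeR adjusted p = 0.0501), with no filter (0.0811) and with the GC and length correction (0.072). Among 17 negative regulators 0 were higher and 2 lower, beside 6.90% and 4.15% of all genes. The ubiquitin ligase CBL was lower by 0.68 and ENPP1, which binds and inhibits INSR, by 0.64. CBL averaged 20.4 TPM in DNMT3A and DNMT3B and 31.5 TPM in DNMT1 and EGFP, with 22.4 TPM in pUC19. For ENPP1 these values were 10.6, 15.8 and 21.9 TPM. Of 20 further FOXO factors and FOXO target genes 0 were higher and 3 lower, beside 6.90% and 4.15% of all genes. The 3 were CCNG2, lower by 0.98, SOD2 by 0.54 and CITED2 by 0.48. CITED2 lay at the threshold itself, with an edgeR adjusted p that rounds to 0.05. With no filter on low counts CCNG2 (edgeR adjusted p = 0.0665) and CITED2 (0.0789) missed the threshold, and CITED2 also missed it with median-ratio size factors (edgeR adjusted p = 0.0502). FOXO1 and FOXO3 did not pass in the same fit.

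Among the genes around IRS4 on chromosome X, NXT2 (start site 799.2 kb from that of IRS4) and ACSL4 (996.8 kb), both on the far side from COL4A5, were also lower in all 4 fusions. ACSL4, which activates arachidonic acid, measured 11.5, 9.21, 11.6 and 10.4 TPM in the DNMT1, DNMT3A, DNMT3B and EGFP libraries against 24.01 TPM in pUC19. NXT2, an mRNA export factor, measured 8.13, 6.51, 8.35 and 8.06 TPM against 16.8 TPM, and missed the 2-fold limit in DNMT3B alone, at 1.999-fold. Both differences were smaller than that of IRS4, and neither gene passed the edgeR fit against pUC19 (NXT2 edgeR adjusted p = 0.0798), whereas DESeq2 called both (adjusted p = 0.00133 for ACSL4 and 0.00799 for NXT2). NXT2 was named after its values were seen.

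On the other side, COL4A5 and COL4A6, which encode basement membrane collagen chains, lie head to head with start sites 341 bases apart. COL4A5 measured 3.48 and 3.33 TPM in DNMT1 and EGFP, 2.03 and 1.81 TPM in DNMT3A and DNMT3B and 3.61 TPM in pUC19. COL4A6 measured 4.03, 4.41, 1.97, 1.84 and 3.27 TPM in the same order. Both were lower in the DNMT3A and DNMT3B libraries than in DNMT1 and EGFP, by 0.88 (SE 0.206, edgeR adjusted p = 0.0287) and 1.20 (SE 0.191, edgeR adjusted p = 0.00809). IRS4, which was chosen for its low level in the dCas9 libraries, did not pass in the same fit. ATG4A was 0.64 to 1.06 higher than in pUC19 on the log2 scale in the 4 fusions and PSMD10 lay between -0.13 and 0.30. VSIG1 measured 7.56 TPM in DNMT1, 4.25 to 5.06 TPM in the other fusions and 4.50 TPM in pUC19. GUCY2F had no row and KCNE1L had no reads in the fusions.

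**Figure D4:**
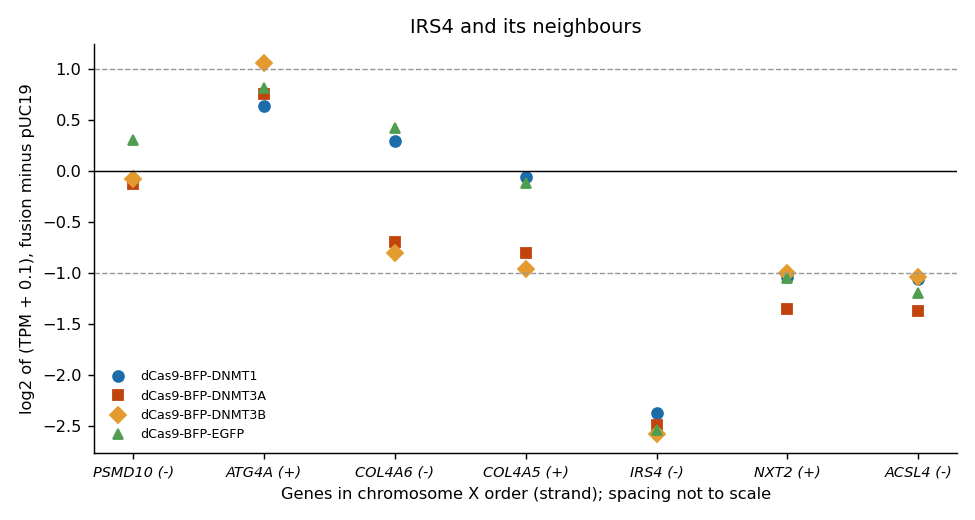
Log2 difference in TPM + 0.1 between each fusion library and pUC19 for IRS4 and 6 neighbours in chromosome X order, strand in brackets, with dashed lines at 2-fold. IRS4 lies below -2.3 in all 4 fusions, NXT2 and ACSL4 lie near -1 to -1.4, and COL4A5 and COL4A6 lie between -0.70 and -0.96 in the DNMT3A and DNMT3B libraries and between -0.11 and 0.42 in the other 2.

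The genes whose profile across the 5 libraries was most like that of IRS4 were sought among 9237 genes with a mean of at least 10 TPM, by the root mean square difference of log2(TPM + 0.1) after centring. MYC, a growth-promoting transcription factor, was closest, at 0.092. It measured 88.2, 73.8, 65.5 and 75.5 TPM in the DNMT1, DNMT3A, DNMT3B and EGFP libraries and 386.8 TPM in pUC19. MYC and IRS4 thus stood at similar levels in each library. HNRNPL, an RNA-binding protein, followed at 0.214, the carbonic anhydrase CA2 at 0.216, FAM84B at 0.269 and MARVELD1 at 0.277. All 5 were chosen for this likeness, which rests mainly on 1 feature, the gap between pUC19 and the fusions.

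**Figure D5:**
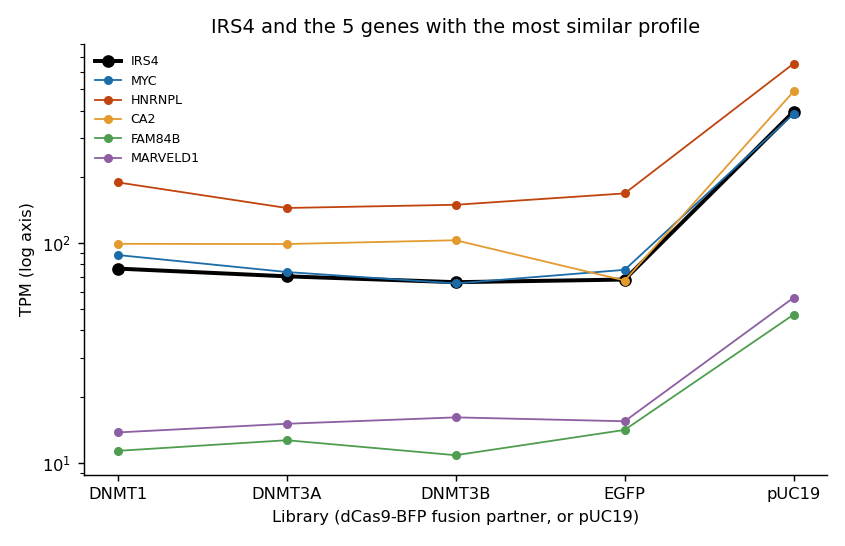
TPM (logarithmic axis) of IRS4 and of the 5 genes with the smallest root mean square difference from its centred profile in each library, with lines joining the values of a gene and standing for no trend. MYC runs almost on IRS4, from 65.5 to 88.2 TPM in the fusions and 386.8 TPM in pUC19, and all 6 genes are highest in pUC19.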

How the data were processed

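RNA of HEK293T cells was sequenced in 5 libraries, 1 per group, and groups were taken from the sample titles. After oligo(dT) selection and fragmentation, 240 bp cDNA was amplified (12 cycles) for the Ion Proton. Low-quality reads and those under 30 nt were discarded by the authors, who mapped with tmap against hg19 RefSeq transcripts (3 mismatches or fewer, unique reads). The tmap version and strandedness were not given in the sources used here. The deposited read counts are not normalized. The deposited TPM is the count per transcript length, scaled to a fixed sum. The deposited coverage is a percent of the transcript. Genes missing from a table were set to 0. Unique alignment lowers near-identical genes such as FOXO3 and FOXO3B, and PCR duplicates are counted as reads, so intervals and floors (3 reads) cover counting error only.

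The members and the pathway lists were chosen with earlier results of these data known. Ratios to pUC19 were taken on TPM + 0.1 among genes of at least 1 TPM, with 95% exact conditional intervals. Fusions were compared with edgeR 4.0.16 (R 4.3.3; TMM, filterByExpr, glmQLFit and glmQLFTest) with Benjamini-Hochberg adjustment over all genes and a threshold of 0.05. Its SE was taken as the difference divided by the square root of F. Pairs of libraries were compared with an exact conditional binomial test in scipy. Alternatives were another pseudocount, scaling, minimum level, filter or tool (DESeq2 1.42.0), a loess trend (span 0.3) on GC content and length (89.25% of genes had both), and leaving out each fusion. Scripts were tested on simulated data. Named were the members; up to 4 listed genes per list and direction at 2-fold or more in all 4 fusions; up to 3 per list and direction past the threshold between fusions; the 5 genes most like IRS4; and the rows that can share reads with a member. GENCODE v44 gave positions on GRCh37, which is also the files' build. Promoter sequences are from RefSeq (GRCh38.p14) and were placed on GRCh37 by exact match. Of the listed genes past the threshold between fusions, 1 is counted but not reported here. Guides were read from the study's supplementary table.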

Additional observations from a re-analysis of the deposited data

Results flagged for a closer look

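Of the 9 genes tested, 2 passed the edgeR comparison of the DNMT3A and DNMT3B libraries with the DNMT1 and EGFP libraries. None of the 60 tests between single fusion libraries reached the thresholds of the study. Those thresholds were set for comparison with pUC19 and also require 2-fold, whereas the edgeR comparison has no minimum fold. The 2 outcomes are therefore not set against each other. IGF2R was lower in the DNMT3A and DNMT3B libraries than in the DNMT1 and EGFP libraries, with a log2 difference of -0.90 (lower in 4 of 4 pairings across the sides). IRS2 was higher in the DNMT3A and DNMT3B libraries, with a log2 difference of 0.73 (higher in 4 of 4 pairings). Such pairings agreed in direction for 4 of the 9 genes and for 57.5% of all genes. Neither passed without DNMT3A or without DNMT3B, whereas both passed without DNMT1 and without EGFP. Each of these fits had a single library on 1 side. Against pUC19, IGF2R stood out in DNMT1 and EGFP as higher, and IRS2 in the same libraries as lower. The part played by transfection, sorting or library preparation was not tested.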

How the results depend on the processing

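No paired analysis was possible because each group had 1 library. The count of 1 member 2-fold or more from pUC19 was the same in each fusion under all 6 alternatives, and the log2 difference of IRS4 stayed within its counting interval except in the DNMT1 library, where TMM scaling gave -2.24 and median-ratio size factors gave -2.23 in place of -2.37. Between the de novo fusions and the other 2 fusions, 1052 genes passed with no filter in place of 1694, and 18 to 3850 when a library was left out (3536 without DNMT1, 18 without DNMT3A, 53 without DNMT3B, 3850 without EGFP). Of the members, 2 passed under DESeq2, median-ratio size factors and the GC and length correction, 1 with no filter, where IRS2 was lost (adjusted p = 0.0535 in edgeR), and 0 to 3 when a library was left out, PIK3R1 passing without DNMT1 (edgeR adjusted p = 0.0202). Of the listed genes 17 of 134 passed in that fit (12.7%), 29 of 122 under DESeq2 (23.8%, beside 16.5% of all genes), 36 of 133 with the GC and length correction (27.1%, beside 15.7%) and 0 to 47 when a library was left out; these alternatives were chosen after seeing the data. Against pUC19, 0 listed genes passed, 12 under DESeq2, 2 (TRIB3 and ACSL4) with no filter and 0 to 1 when a fusion was left out, TRIB3 passing without DNMT1 and without DNMT3B. Between pairs of fusions 0 member comparisons were called, and 27 with no minimum fold. Among members that did not pass, the sign changed for FOXO3 (0.00457 under DESeq2, 0.00906 with no filter, 0.0531 with the GC and length correction, -0.14 to 0.15 when a library was left out), and, leaving out a library, for FOXO1 (-0.11 to 0.15), IRS4 (-0.281 to 0.0206) and PIK3R1 (-0.45 to 0.11). The cause of these changes was not tested. Depth limits IGF2, at 4 to 12 reads, and the lack of replicates limits the rest.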

Other observations

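DESeq2 called 12 of 127 listed genes against pUC19 (9.45%, beside 7.10% of all genes). Given here are 3 of those that were higher in all 4 fusions, none of which passed the edgeR fit. SHC1, an adaptor that couples receptors to RAS, measured 70.4, 90.5, 84.2 and 90.5 TPM in the DNMT1, DNMT3A, DNMT3B and EGFP libraries against 48.2 TPM in pUC19 (log2 difference 0.85, SE 0.201, edgeR adjusted p = 0.089). RPTOR, the defining subunit of mTOR complex 1, measured 40.8, 49.0, 49.6 and 56.8 TPM against 25.7 TPM (0.98, SE 0.208, edgeR adjusted p = 0.0703). PIK3IP1, an inhibitor of PI3K, measured 7.79, 10.6, 11.8 and 12.4 TPM against 4.55 TPM (1.27, SE 0.305, edgeR adjusted p = 0.0903). All 3 were named here after their values were seen, and no trend of the pathway is read from them. DESeq2 also called TRIB3, GAB2, TXNIP and ATG4A as higher, and GRB14, CAT, PIK3C2B, ACSL4 and NXT2 as lower.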
